A study of Homo sapiens with 4 samples.

Results

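The CDC25 phosphatases and the kinases that act with or against them were examined for m6A peaks in OE-19 cells, an established cell line of adenocarcinoma of the esophagogastric junction (AEG). The 8 genes were fixed by name, out of 20046 protein-coding genes of the annotation, and they were the phosphatases CDC25A, CDC25B and CDC25C, the inhibitory kinases WEE1 and PKMYT1, the checkpoint kinases CHEK1 and CHEK2, and the mitotic kinase PLK1. A peak was taken for a gene when its summit, the position of highest signal, lay between the ends of that gene. In meRIP-seq, fragments of RNA that carry N6-methyladenosine (m6A) are enriched with an antibody and sequenced, and a program calls peaks where such fragments accumulate. The series held 2 m6A immunoprecipitation (IP) samples and 2 input samples of OE-19 cells grown in RPMI1640 with serum and antibiotics, and the labels name no treatment, genotype or separate culture for the replicates. Peaks had been called for each IP replicate alone, giving 24607 for replicate 1 and 19318 for replicate 2, while no input list was analysed here. The lists carry no expression values, so the label of the cell line was not checked against marker genes, and the depth of the libraries is unknown. Of all peaks, 11 of replicate 1 and 6 of replicate 2 had their summit in the body of one of the 8 genes.

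CDC25 phosphatases remove inhibitory phosphates from cyclin-dependent kinases (CDKs) and so allow the cell to enter S phase and mitosis. WEE1 and PKMYT1 place those phosphates, CHEK1 and CHEK2 restrain CDC25 proteins when DNA is damaged or replication stalls, and PLK1 promotes mitotic entry by activating CDC25C and marking WEE1 for destruction. m6A is written on nuclear RNA mainly at the GGAC core of a longer consensus called DRACH (D stands for any base but C, R for a purine and H for any base but G), and in mRNA it is found most often near stop codons and in long exons.

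The sequences below show where GGAC falls under the peaks of the CDC25 genes, each as 21 bases of the gene's strand from hg38 with the GGAC core in capitals. In CDC25A, the interval common to the peaks of both replicates held 5 GGAC sites, and these are shown because they span the stop codon. The opposite strand of that interval held 3. In CDC25C the peak of replicate 1 held 1 site, and in CDC25B the peak of replicate 1 held 2 sites, both far into the 3′ UTR. Positions are those of the adenine, with 0 at the stop codon's first base, on the transcript whose coding sequence (CDS) is longest.
CDC25A, −95 nt (chr3:48159032-48159052, minus strand): caccacgaGGACtttaaagaa
CDC25A, −54 nt (chr3:48158991-48159011, minus strand): caagagccGGACctgggcagg
CDC25A, 13 nt (chr3:48158924-48158944, minus strand): gggcggcaGGACcagccagca
CDC25A, 88 nt (chr3:48158849-48158869, minus strand): agcaaaggGGACagctgtgtg
CDC25A, 121 nt (chr3:48158816-48158836, minus strand): ggggcctgGGACttccatgcc
CDC25C, −11 nt (chr5:138285695-138285715, minus strand): ctggtgaaGGACatgagccca
CDC25B, 974 nt (chr20:3805923-3805943, plus strand): atttgtgtGGACaaaaatatt
CDC25B, 1043 nt (chr20:3805992-3806012, plus strand): taaaccaaGGACtgagcaccc

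To see which of the 8 genes carried m6A peaks, summits in annotated exons were counted. An exonic peak was present in 5 of the 8 genes in replicate 1 (CDC25A, CDC25B, CDC25C, WEE1 and PKMYT1), against 42.4% of all protein-coding genes. In replicate 2 it was present in 3 of the 8 genes (CDC25A, WEE1 and PKMYT1), against 34.1%. The same 3 genes had one in both replicates, or 37.5% of the list, beside 33.4% of all protein-coding genes, so the share of the list lay near the background. CDC25B and CDC25C had an exonic peak in replicate 1 alone, as did 9.02% of protein-coding genes, and no member had one in replicate 2 alone, as 0.758% did. CHEK1, CHEK2 and PLK1 had no exonic peak in either replicate, as was the case for 56.9% of protein-coding genes. A missing call does not show that m6A was missing, since a transcript of low abundance and a transcript without m6A cannot be told apart in these lists.

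**Figure D1:**
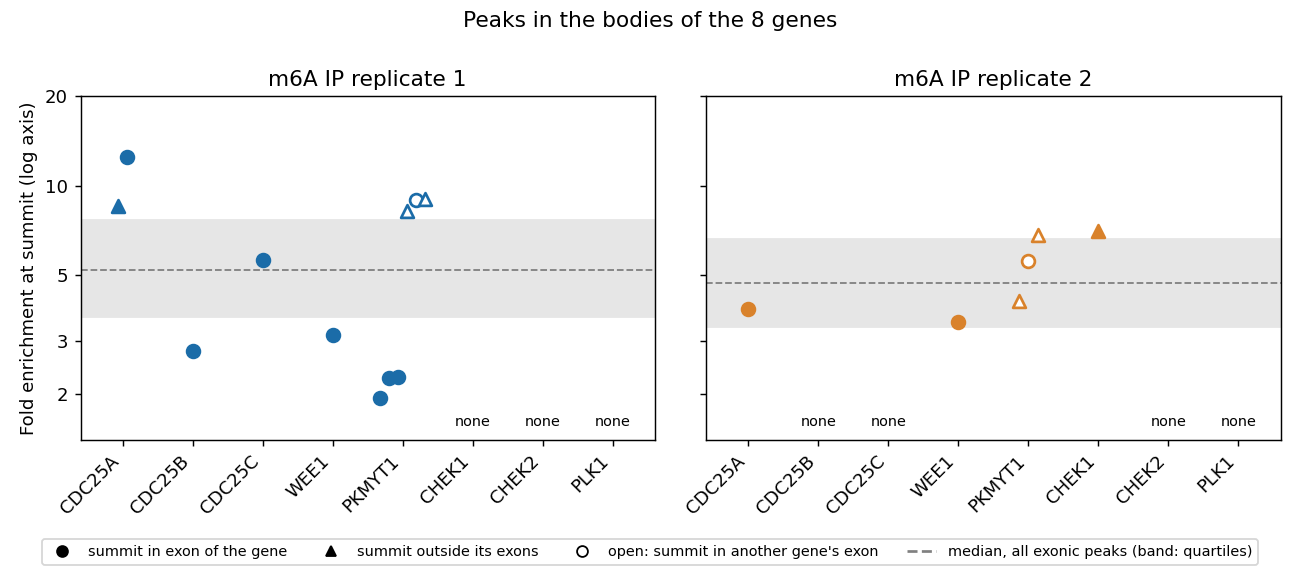
Fold enrichment at the summit (log axis) of every peak in the bodies of the 8 genes, in replicate 1 (left) and replicate 2 (right), with the median and quartiles of all exonic peaks of the same list as a dashed line and a band. CDC25A stood at 12.5 in replicate 1 and 3.85 in replicate 2, WEE1 lay below the median in both, and the strong PKMYT1 peaks are open symbols because their summits lay in exons of other genes.

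The fold enrichment of a peak is the caller's ratio of signal to local background at the summit. Over the exonic peaks of the 8 genes its median was 2.96 in replicate 1 (8 peaks) and 3.85 in replicate 2 (3 peaks), beside medians of 5.21 and 4.72 over the 18488 and 12003 exonic peaks of the lists. Of the 8 peaks of replicate 1, 4 had their summit in PKMYT1 exons, so shares of these peaks are not shares of genes. A fold enrichment of 5 or more was reached by 3 of the 8 peaks in replicate 1, where 53.8% of exonic peaks reached it, and by 1 of the 3 in replicate 2, where 46% did. In replicate 1 the best exonic peaks ranked in the order CDC25A (12.5), PKMYT1 (8.97), CDC25C (5.65), WEE1 (3.15) and CDC25B (2.78). In replicate 2 the order was PKMYT1 (5.598), CDC25A (3.85) and WEE1 (3.48). The place of PKMYT1 rests on a peak that also lies in exons of KREMEN2. With such peaks left out its best value was 2.27 in replicate 1, the lowest of the 5 genes, and it had none in replicate 2.

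CDC25A, which acts at the G1-S transition and in mitosis, lies on the minus strand of chromosome 3 (48157146 to 48188417 in hg38). Its exonic peak ran from 48158503 to 48159061 in replicate 1 and from 48158576 to 48159047 in replicate 2, and all of it lay in exon 15, the last of the transcript ENST00000302506.8. The summits were 20 bp apart. The replicate 1 summit was in CDS, at −13 nt relative to the stop codon, and the replicate 2 summit was in the 3′ UTR, at 7 nt. Summits at most 20 nt from the stop codon made up 3.09% of the exonic summits of replicate 1 and 3.34% of those of replicate 2, a window chosen after these positions were seen. The peak reached 444 nt past the stop codon in replicate 1 and 371 nt in replicate 2, of a 3′ UTR of 1799 nt. The downstream part of that UTR therefore held no call in either list.

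The fold enrichment of this peak was 12.5 in replicate 1 and 3.85 in replicate 2, with −log10 q of 37.0 and 15.1. It stood at percentile 94.0 of the exonic peaks in replicate 1 and at percentile 34.3 in replicate 2. As a log2 ratio, replicate 1 exceeded replicate 2 by 1.70. Across 10855 pairs of exonic peaks that overlapped each other, this ratio had a median of 0.44 and an SD of 0.55, and that of CDC25A was at percentile 98.6. The position was thus shared closely between the replicates while the size was not, and whether CDC25A counted among the stronger or the weaker peaks of a list depended on the replicate.

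CDC25A had a further peak in replicate 1 alone (48159253 to 48159381), with a fold enrichment of 8.56 and a −log10 q of 10.5. Its summit lay in the intron 27 bp from exon 14, and 38 of its 129 bp were exonic. No GGAC was present in it.

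CDC25C, whose product is activated at mitotic entry, lies on the minus strand of chromosome 5 (138285269 to 138338355). Replicate 1 had 1 peak in the gene (138285434 to 138285774), with a fold enrichment of 5.65 at percentile 55.8 of exonic peaks and a −log10 q of 6.65. Replicate 2 had none. Its nearest peak was 2855 bp beyond the 5′ end of CDC25C, at the far end of the gene from the replicate 1 peak. That peak lay in an exon of FAM53C, which overlaps the 5′ end of CDC25C by 6421 bp on the opposite strand. The summit lay in exon 14, the last exon, at −2 nt from the stop codon, and the peak ran from −80 to 260 nt of a transcript with only 423 nt of 3′ UTR. As in CDC25A, the summit and the nearest GGAC both fell near the stop codon. In replicate 1 the nearest GGAC adenine was 9 nt upstream of the summit in CDC25C and 26 nt downstream in CDC25A, and in replicate 2 it was 6 nt downstream in CDC25A.

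CDC25B, a phosphatase that acts early in mitotic entry, lies on the plus strand of chromosome 20 (3786772 to 3806121). Its only peak was in replicate 1 (3805765 to 3806007), with a fold enrichment of 2.78 at percentile 11.5 of exonic peaks and a −log10 q of 6.94. The summit was 862 nt past the stop codon in exon 16, near the end of a 3′ UTR of 1154 nt. No GGAC lay within 50 nt of it, and the nearest was 112 nt downstream. In replicate 2 no peak had its summit in CDC25B.

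**Figure D2:**
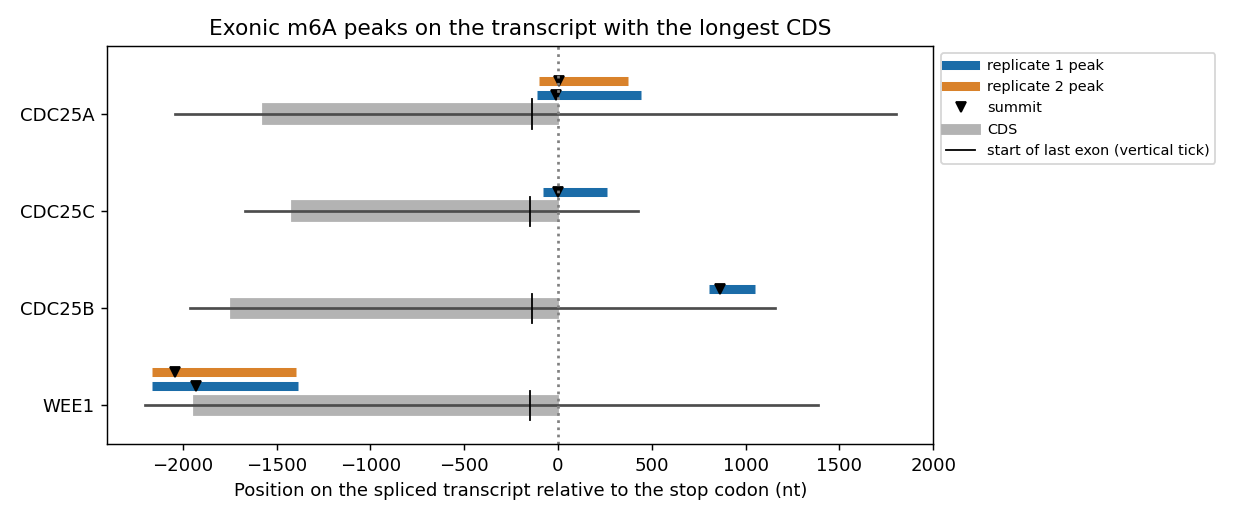
Exonic peaks of CDC25A, CDC25C, CDC25B and WEE1 on the spliced transcript with the longest CDS, aligned at the stop codon (nt), with grey boxes for CDS, a tick at the start of the last exon, bars for peaks and triangles for summits. The CDC25A and CDC25C summits sat within 13 nt of the stop codon, the CDC25B summit lay 862 nt downstream, and the WEE1 peaks covered the 5′ end.

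The CDC25 genes were then compared with each other. In replicate 1 the best exonic peak of CDC25B was lower than that of CDC25A by a log2 difference of −2.17, which is 4.49-fold. CDC25C was lower than CDC25A by −1.14, or 2.21-fold, and higher than CDC25B by 1.02. Each of these differences was larger than 0.55, the SD of the log2 ratio between replicates over all exonic pairs. That SD covers only peaks called in both lists, so neither CDC25B nor CDC25C is among them. It is not an error of a difference between 2 genes. In replicate 2 neither CDC25B nor CDC25C had a value, so the differences rest on 1 library and were not tested, and even with 2 values a gene a two-sided exact permutation p cannot fall below 0.333 unpaired, or below 0.5 paired by replicate. The CDC25A peak itself differed by 1.70 on the log2 scale between its replicates, more than CDC25C differed from it. Its value in replicate 2 (3.85) was below the CDC25C value of replicate 1 (5.65), but these values come from different lists. Of all exonic pairs, 80.6% were higher in replicate 1, so the 2 values do not compare the genes.

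WEE1, the kinase that holds CDK1 inactive, lies on the plus strand of chromosome 11 (9573670 to 9593457). Its peak was at the other end of the transcript, in exon 1, from 9573711 to 9574484 in replicate 1 and from 9573707 to 9574476 in replicate 2. The ends of the peak differed by 4 and 8 bp between the replicates, and 766 bp were common to both. The fold enrichment was 3.15 in replicate 1 and 3.48 in replicate 2, at percentiles 17.1 and 27.5, whereas −log10 q was 19.5 and 24.97, at percentiles 66.4 and 72.1. The peak was thus low in fold enrichment but above the middle of the lists in q. It was also wide, at 774 and 770 bp, or percentiles 85.0 and 82.8 of exonic peaks.

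The WEE1 summits were 110 bp apart, at 8 nt after the first base of the start codon in replicate 1 and at −102 nt in the 5′ UTR in replicate 2. Both lay within 300 nt of the transcript start, as did 12% of exonic summits in replicate 1 and 6.26% in replicate 2. GC content within 50 nt of the summit was 79.2% and 82.2%, at percentiles 97.3 and 99.3 of exonic summits. GGAC was absent within 50 nt of the replicate 1 summit, and 1 site lay there in replicate 2. The common interval held 6 GGAC sites, 2 in the 5′ UTR and 4 in CDS, beside 5 on the opposite strand. The 2 sites of the 5′ UTR are shown because they lie closest to the replicate 2 summit, with positions relative to the start codon.
WEE1, −78 nt (chr11:9573846-9573866, plus strand): cacgtggcGGACccgccccca
WEE1, −50 nt (chr11:9573874-9573894, plus strand): agtgtcctGGACcccgcaggc

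**Figure D3:**
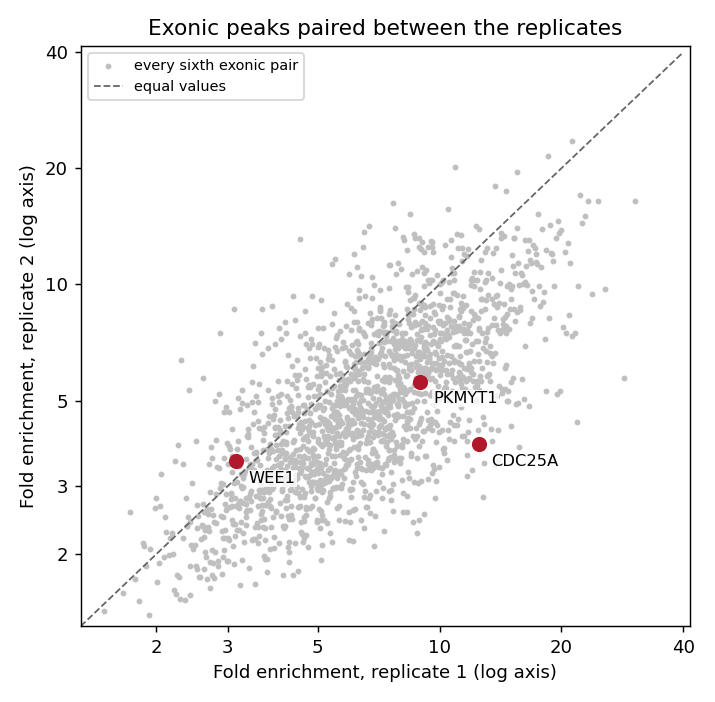
Fold enrichment of exonic peaks in replicate 1 (x axis) and replicate 2 (y axis), both on log axes, with every sixth of the 10855 pairs in grey, the line of equal values dashed and the pairs of the 3 genes in red. WEE1 lay just above the line, PKMYT1 inside the cloud, and CDC25A at its lower right edge.

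For the WEE1 peak the log2 ratio between replicates 1 and 2 was −0.14, at percentile 13.5 of all pairs, of which 80.6% were higher in replicate 1. The mean log2 fold enrichment of the best exonic peak was 2.79 ± 1.20 (SD, n = 2) for CDC25A, 2.82 ± 0.48 for PKMYT1 and 1.73 ± 0.10 for WEE1. The PKMYT1 values are those of the peak that KREMEN2 exons also cover. WEE1 was the lowest of these 3 in both replicates, but in replicate 2 CDC25A was above it by just 0.15, against 1.99 in replicate 1. Since the genes were read from the same 2 lists, they were compared in pairs by replicate. The exact two-sided paired permutation test gave p = 0.5 for CDC25A against WEE1 and for WEE1 against PKMYT1 (adjusted p = 0.75 over 3 comparisons), the smallest value that 2 pairs allow, and p = 1 for CDC25A against PKMYT1. The CDC25A and PKMYT1 means differed by less than the spread of either gene.

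PKMYT1, which phosphorylates CDK1 at membranes, lies on the minus strand of chromosome 16 (2968024 to 2980479) and had 6 peaks in its body in replicate 1 and 3 in replicate 2. Genes on the opposite strand cover part of it, and the lists carry no strand. The strong peaks lay where those genes have exons. The peak with the highest −log10 q (64.4 and 65.8) was 2272 bp wide in replicate 1 and 2158 bp in replicate 2, with a fold enrichment of 8.20 and 6.83. Its summit was in an exon of PAQR4 and in none of PKMYT1, and PAQR4 exons covered 94.0% and 93.7% of it, beside 49.9% and 51.6% for PKMYT1 exons. A second peak with its summit in an exon of PAQR4 had a fold enrichment of 8.997 and 4.09.

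The third strong peak was the only PKMYT1 exonic peak that both replicates shared, and its summit lay in exons of both PKMYT1 and KREMEN2. Of all exonic summits, 8.54% (replicate 1) and 8.34% (replicate 2) were in exons of several genes. It ran from 2967536 to 2968376 in replicate 1 and from 2967559 to 2968334 in replicate 2. Its fold enrichment was 8.97 and 5.598. PKMYT1 exons covered 353 of its 841 bp and 311 of its 776 bp, whereas KREMEN2 exons covered 100% in both replicates, and it extended 488 and 465 bp beyond the 3′ end of PKMYT1. The interval common to both replicates held 7 GGAC sites on the PKMYT1 strand and 9 on the KREMEN2 strand. To which of the genes this peak belongs cannot be told from lists without strand, and with such summits left out the genes with an exonic peak in both replicates were CDC25A and WEE1 alone among the 8. The 4 sites on the PKMYT1 transcript are shown with positions from its stop codon, because 3 of the 7 lie beyond the transcript.
PKMYT1, 16 nt (chr16:2968293-2968313, minus strand): ctcactgaGGACggcagtcca
PKMYT1, 29 nt (chr16:2968280-2968300, minus strand): gcagtccaGGACcacccccag
PKMYT1, 104 nt (chr16:2968205-2968225, minus strand): gagggcctGGACcatctggac
PKMYT1, 113 nt (chr16:2968196-2968216, minus strand): gaccatctGGACccccacggt

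**Figure D4:**
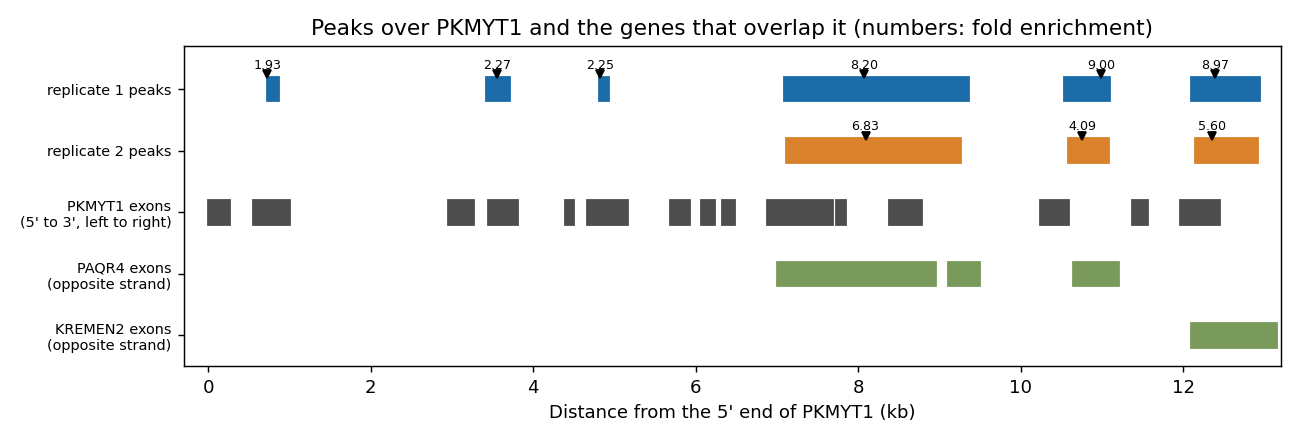
Peaks of both replicates over PKMYT1 by distance from its 5′ end (kb), with the exons of PKMYT1 and of PAQR4 and KREMEN2 on the opposite strand, triangles for summits and numbers for fold enrichment. The 3 peaks found in both replicates lay over exons of PAQR4 or KREMEN2, and the 3 peaks over PKMYT1 exons alone were in replicate 1 with a fold enrichment of 2.27 or less.

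The peaks that lay on PKMYT1 exons alone were weak and were called in replicate 1 only. They had a fold enrichment of 1.93, 2.27 and 2.25, at percentiles 1.64, 4.86 and 4.59 of exonic peaks. The first was in the 5′ UTR, with a q of 0.0357 close to the limit of the list, and the others were in CDS of exons 3 and 4.

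CHEK1, the kinase that restrains CDC25A during replication stress, lies on chromosome 11 (125625163 to 125676255) and had 1 peak, in replicate 2 (125673445 to 125673678), with a fold enrichment of 7.04 and a −log10 q of 7.68. It overlapped no exon of CHEK1 or of ACRV1, the gene on the opposite strand whose body also covers it, and its summit was 2345 bp from the nearest exon of the CHEK1 transcript with the longest CDS. It held no GGAC, and the GC content around its summit was 45.5%. CHEK2, which acts below the DNA break sensor ATM, had no peak in its body, and the nearest peaks were 22467 bp away in replicate 1 and 22138 bp in replicate 2. PLK1 had no summit in its body either. A peak at its 3′ end overlapped it by 29 bp in replicate 1 and by 0 bp in replicate 2, with a fold enrichment of 3.71 and 3.37 and the summit in an exon of ERN2, the adjoining gene on the opposite strand.

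Next, the regions and motifs of the 8 genes' exonic summits were set beside those of the whole lists. The counts are of peaks, and PKMYT1 alone gave 4 of the 8 peaks of replicate 1. An overlap with a peak of the other replicate was found for 3 of 8 exonic peaks in replicate 1 and for 3 of 3 in replicate 2, beside 60.6% and 95.9% of all exonic peaks. Summits in a window of 200 nt on either side of the stop codon numbered 2 of 8 in replicate 1 (CDC25A and CDC25C) and 2 of 3 in replicate 2 (CDC25A and PKMYT1), beside 24.5% and 27.1% of all exonic summits. The PKMYT1 summit was at the edge of this window, at 198 nt, and also in an exon of KREMEN2. Summits shared in this way are left out of the background shares. Of the other 6 summits of replicate 1, 3 lay in CDS (WEE1 and PKMYT1, background 49.6%), 1 in the 5′ UTR (PKMYT1, 8.79%), 1 in the 3′ UTR (CDC25B, 17.1%) and 1 in PKMYT1 18 bp beyond the transcript used. The other summit of replicate 2 lay in the 5′ UTR (WEE1, 5.68%). The last exon held 3 of 8 summits in replicate 1, those of the CDC25 genes, and 2 of 3 in replicate 2, beside 50.5% and 59.2%. GGAC on the gene's strand within 50 nt was present at 4 of 8 summits in replicate 1 and at 2 of 3 in replicate 2, beside 50% and 52%. For DRACH the counts were 6 of 8 and 2 of 3, beside 85.8% and 89.1%. Pooled over both lists, GGAC was present at 6 of 11 summits, or 54.5% (95% Wilson interval 28.0% to 78.7%, counting error only, with 3 peaks counted once in each list). TGGAC was present at 0 of 11 summits, beside 18.9% and 20.2% of all exonic summits. A count of 0 of 11 has a Wilson upper limit of 25.9%, which is above both background shares. The reverse complement GTCC, searched on the same windows as a control of strand, was present at 3 of 8 and 2 of 3, beside 31.2% and 29.4%.

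The transcripts themselves differed in how many GGAC sites they hold around the stop codon. Within 200 nt of it CDC25A and PKMYT1 had 5 each (percentile 96.2 of 19702 transcripts), PLK1 had 3, CDC25B and CDC25C had 2 each, WEE1 and CHEK1 had 1 each, and CHEK2 had 0. The median over all transcripts was 1, and 76.3% had at least 1. Genes with an exonic peak in both replicates had a median of 2 and 81.3% had at least 1, against 1 and 72.8% for genes without a peak. For genes with a peak in 1 replicate these values were 2 and 79.5%. PLK1, with 3 sites, had no exonic peak, and the WEE1 peak lay outside this window. The 3 genes without an exonic peak had transcripts of 1912 nt (CHEK1), 1971 nt (CHEK2) and 2160 nt (PLK1), all below the median of 2308 nt for genes without a peak and of 3783 nt for genes with a peak in both replicates. Of the members with a peak in both, CDC25A had 3844 nt, WEE1 had 3588 nt and PKMYT1 had 2308 nt, the last equal to the median of genes without a peak. CDC25B and CDC25C, with a peak in replicate 1 alone, had 3119 and 2093 nt, beside a median of 2801.5 nt for genes with a peak in 1 replicate. Whether the number of sites or the length bears on a call was not tested, and the lists carry no expression values.

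The 3 protein-coding genes whose fold enrichment was most like that of CDC25A were ABHD6 (12.1 in replicate 1 and 4.07 in replicate 2), HSD11B1L (11.6 and 3.82) and LEMD3 (12.4 and 4.20). They were the nearest of 1985 genes with exactly 1 exonic peak in each list, at Euclidean distances of 0.10, 0.11 and 0.13 on the log2 scale over the 2 samples. Both summits lay near the stop codon in ABHD6, in the 3′ UTR in HSD11B1L and in CDS in LEMD3.

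Finally, 39 other genes of the same pathway were examined. An exonic peak was present in 26 of them in replicate 1, in 19 in replicate 2 and in 19 in both (48.7%), beside 42.4%, 34.1% and 33.4% of protein-coding genes. That background counts every annotated gene, whether or not OE-19 cells express it, and the difference was not tested. A peak of fold enrichment 5 or more in both was present in 8 of the 39, beside 19.3% of protein-coding genes. The CDK and cyclin genes on the list were 7, namely CDK1, CDK2, CCNA2, CCNB1, CCNB2, CCNE1 and CCNE2. Other CDKs and cyclins were not examined. None of the 7 had an exonic peak in both replicates, as 33.4% of protein-coding genes did. Only CDK2 (3.48), CCNA2 (2.04) and CCNE1 (4.56) had one in replicate 1, or 3 of 7, beside 42.4% of protein-coding genes. Of 8 genes upstream of the checkpoint kinases, 4 had a peak in both (ATR, ATRIP, CLSPN and RAD9A). ATRIP, the partner of the kinase ATR, had the highest geometric mean with 11.9 and 9.90, although its best replicate 1 summit also lay in an exon of another gene. RAD9A reached 15.2 in replicate 1 but 5.598 in replicate 2. ATM, TOPBP1, RAD17 and HUS1 had none.

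Of the 7 genes for 14-3-3 proteins, which bind phosphorylated CDC25, 3 were called in replicates 1 and 2, and SFN was highest with 3.99 and 3.65. Of 6 genes for protein degradation, 3 were called in both lists (BTRC, CUL1 and FZR1) and the others in neither. BTRC encodes the F-box protein that directs CDC25A and WEE1 to destruction, and it had the highest geometric mean of the 39 genes with 14.5 and 10.8. Of 6 genes for other polo-like kinases, regulators of PLK1 and FOXM1, 5 were called in replicates 1 and 2, and PLK4, the kinase of centriole duplication, was highest with 9.23 and 7.09. PLK3 was called in neither. Of 5 genes of the Greatwall kinase and its phosphatase PP2A, all 5 had a peak in replicate 1 and 4 in both, led by MASTL, the Greatwall kinase, with 6.50 and 8.07. The best summits of MASTL and of PPP2CA lay in exons of more than 1 gene in both replicates. With such summits left out, ENSA and PPP2R2A alone of this group were called in both, and 17 of the 39 genes were.

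**Figure D5:**
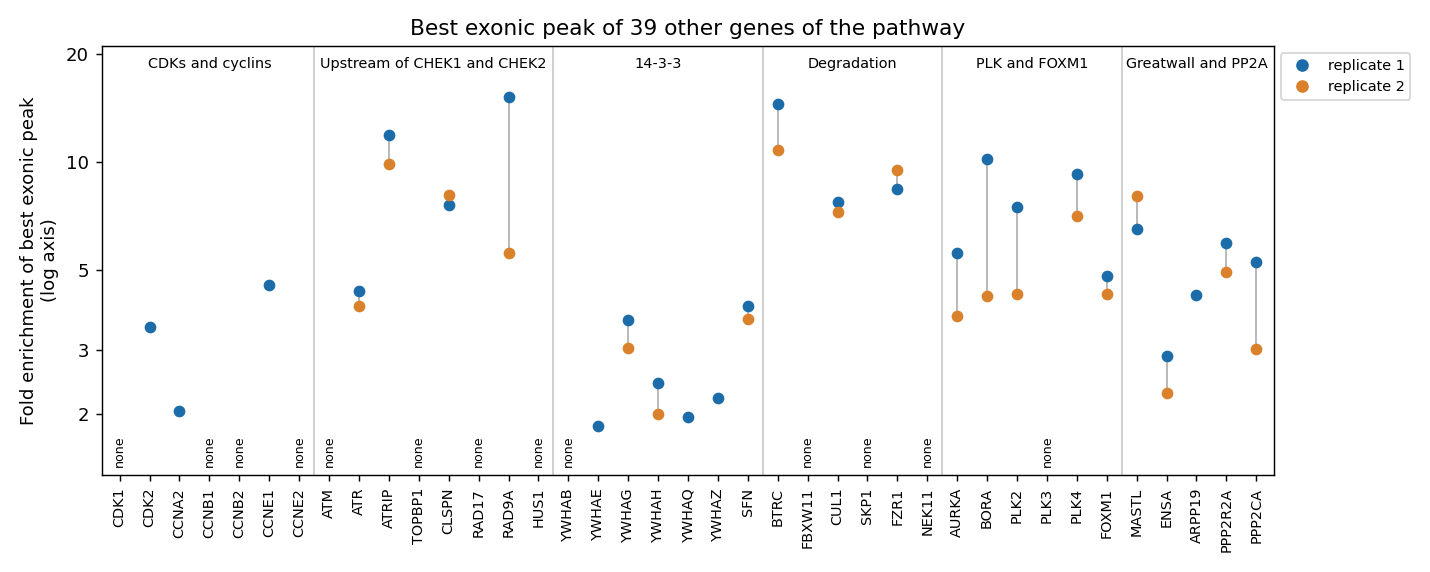
Fold enrichment (log axis) of the best exonic peak of 39 other genes of the pathway, grouped by role, with replicate 1 in blue and replicate 2 in orange, a grey line joining both, and "none" where neither list had an exonic peak. None of the 7 CDK and cyclin genes on the list had values from both replicates, as 33.4% of protein-coding genes did. BTRC had the highest geometric mean, with 14.5 and 10.8.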

How the data were processed

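m6A peaks of OE-19 cells were analysed. Per the study's methods and labels, the authors mapped paired-end reads to hg38 (TopHat2 in the methods, HISAT2 with fastp in the labels) and called peaks with MACS2 at default settings, 1 list per IP sample. The versions, and use of the input as control, are not given in the sources used here. The methods describe fragmented total RNA, the labels UV-fixed lysates. The deposited fold enrichment is a ratio over local background, so it can differ between lists at an equal m6A level. The authors also deposited −log10 of p and q, the summit offset, and a score that was not used. The lists end at a q of 0.05.

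Summits were placed on GENCODE version 44 exons. Coordinates are 1-based. A summit in exons of several protein-coding genes counted for each. Regions refer to the transcript with the longest CDS, and shares over all exonic summits use those in exons of 1 protein-coding gene. Motifs were searched in the genome within 50 nt of the summit. Percentiles are ranks among exonic peaks of the same list. Named genes were the 8 members, the pathway gene per role with the largest geometric mean, and the 3 nearest to CDC25A. Other pathway genes given by name, RAD9A included, were chosen after their values were seen. Members and lists were chosen with earlier results of these data known. No depth or read number is in the lists, so precision is limited by how many peaks were called. With 2 pairs, the paired p-values depend only on whether both differences have the same sign, so they measure no spread. The spread between the 2 samples may be technical. Of 2000 simulated positions, 100% were returned with gene and region. They were made with the same transcript models and region rule, so this does not check the summits or the genes given to shared exons. Python 3.11.15, pandas 2.3.3, pysam 0.24.0 and scipy 1.17.1 were used.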

Additional observations from a re-analysis of the deposited data

How the results depend on the processing

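The number of the 8 genes with an exonic peak in both replicates was 3, and 1 (PKMYT1) when a fold enrichment of 5 or more was required. That 1 rests on the peak that KREMEN2 exons also cover. Of all protein-coding genes, 19.3% had an exonic peak of that size in both replicates. The number of the 8 genes ranged from 3 to 5 when a replicate was left out. Peak midpoints, or leaving out summits in exons of several genes, gave CDC25A and WEE1. For the 39 pathway genes the number was 19, and 8 at a fold enrichment of 5 or more, which 19.3% of all protein-coding genes reached. It was 17, without MASTL and PPP2CA, when summits in exons of several genes were left out. It ranged from 19 to 26 with a replicate left out. The differences of CDC25B and CDC25C from CDC25A were −82.4 and −38.2 percentile points on the scale of ranks. Under the other alternatives that gave a value the log2 differences could not change. Each of these genes had 1 exonic peak in replicate 1, the only list with a difference, so the same peaks were used each time. Their equal values therefore show no stability. Without replicate 1 there was no difference to compute, nor for CDC25B when the fold enrichment had to reach 5. Of the 11 exonic summits, 36.4% lay in the stop codon window, and at the same minimum 75% of 4 did, with 25% to 66.7% when a replicate was left out. With a window of 100 nt, or on the Ensembl canonical transcript, 27.3% of the 11 did. The share with GGAC moved from 54.5% to 90.9% in a window of 100 nt and to 36.4% in one of 25 nt, and TGGAC gave 0%. A wider window contains the narrower one, so the share with GGAC cannot fall as the window widens. No share over all exonic summits is given for windows of 25 or 100 nt. The values at those windows therefore show nothing particular to the 8 genes. Why the other results moved was not tested. Leaving out summits in exons of several genes was added for regions and motifs after the data were seen. No paired analysis was possible because no list of the input samples was analysed, so the replicate numbers join no groups of samples with values. Genes read from the same lists were paired by replicate, and unpaired their exact permutation p was 0.333, 1 and 0.333.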
